A study of Homo sapiens with 2 samples.

Results

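PGD, TKT, TALDO1, ME1 and IDH1 encode enzymes of the pentose phosphate pathway and of cytosolic NADPH supply. Their NRF1 sites were taken from a ChIP-seq peak list of HCT116 cells, a human colorectal carcinoma line, kept for 16 h in 1 µM MG132, which blocks the proteasome. The 5 genes were chosen by function, with earlier results of these data known, from 20163 annotated protein-coding genes. A deposited peak was assigned to a gene when its centre lay within 50 kb of any GENCODE transcription start site (TSS) of that gene on hg19. By this rule 3 of the 5 genes had a peak, and 5 of the 5683 deposited peaks were assigned. There was 1 NRF1 ChIP library of the wild-type line, made with a rabbit polyclonal antibody raised against part of mouse NRF1. Neither the matching input library nor untreated cells were analysed here, so no value has a replicate error or an untreated counterpart.

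The pentose phosphate pathway branches off from glycolysis. Its oxidative branch, in which 6-phosphogluconate dehydrogenase (PGD) is an NADPH-producing step, gives NADPH and ribulose 5-phosphate. Its non-oxidative branch, with transketolase (TKT) and transaldolase (TALDO1), moves carbon between pentose and glycolytic sugar phosphates. Cytosolic malic enzyme (ME1) and isocitrate dehydrogenase (IDH1) make NADPH from malate and isocitrate, and this NADPH keeps glutathione and thioredoxin reduced. NRF1 (NFE2L1) is a CNC-bZIP factor that pairs with small MAF proteins on the antioxidant response element (ARE), a site that it shares with its relative NRF2.

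The sequences below are those nearest to the peak centres at each gene, or the full ARE where the peak held one, read 5′ to 3′ from hg19 with 10 bases on each side. They are shown because the sites differ in how closely they match the ARE. Capitals mark the match to the full form (TGACTCAGC or TGAGTCAGC), to the short form (TGAC or TGAG, any 3 bases, then GC) or to the 7-base core (TGACTCA, which is TGAGTCA on the other strand), all searched on both strands. A full ARE also matches both other forms.
ME1, full ARE, minus strand, chr6:84140899-84140907: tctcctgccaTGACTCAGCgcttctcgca
TKT intron 4, full ARE, plus strand, chr3:53270364-53270372: gctgtcagcaTGACTCAGCacttccacat
TKT upstream, short form, minus strand, chr3:53304263-53304271: caagtcacaaTGACTCGGCatgttttctt
TKT 3′ side, short form, minus strand, chr3:53229956-53229964: tacaggcaggTGACTTCGCcttccagggt
TALDO1 intron 4, core, plus strand, chr11:762899-762905: tggtcagagaTGACTCAgtggttctag

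ME1, the malic enzyme gene, carried the highest-scoring of these peaks, and PGD and IDH1 carried none. The score is the value that MACS gives each peak, 10 times the negative log10 of its p-value, and runs from 50.00 to 3100 in the list with a median of 91.86. The ME1 peak had a score of 891.96, the peaks of TKT 661.04, 447.59 and 153.04, and that of TALDO1 120.08. All 5 scores lay above the median of the list, and those of ME1 and TKT also above its upper quartile of 152.13. Among all protein-coding genes 32.7% had a peak within 50 kb of a TSS, and the median of the best score in these 6591 genes was 108.69. The share of 3 in 5 genes was not tested against this background. A peak that also held a full ARE was found at ME1 and TKT, and at 20.6% of protein-coding genes. A peak within 2 kb of an annotated TSS was found at ME1, TKT and TALDO1, against 6.03% of protein-coding genes. At TKT and TALDO1 that TSS belongs to a short internal transcript and not to the canonical one, so that by the start of the longest coding transcript ME1 alone had a peak within 2 kb.

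**Figure D1:**
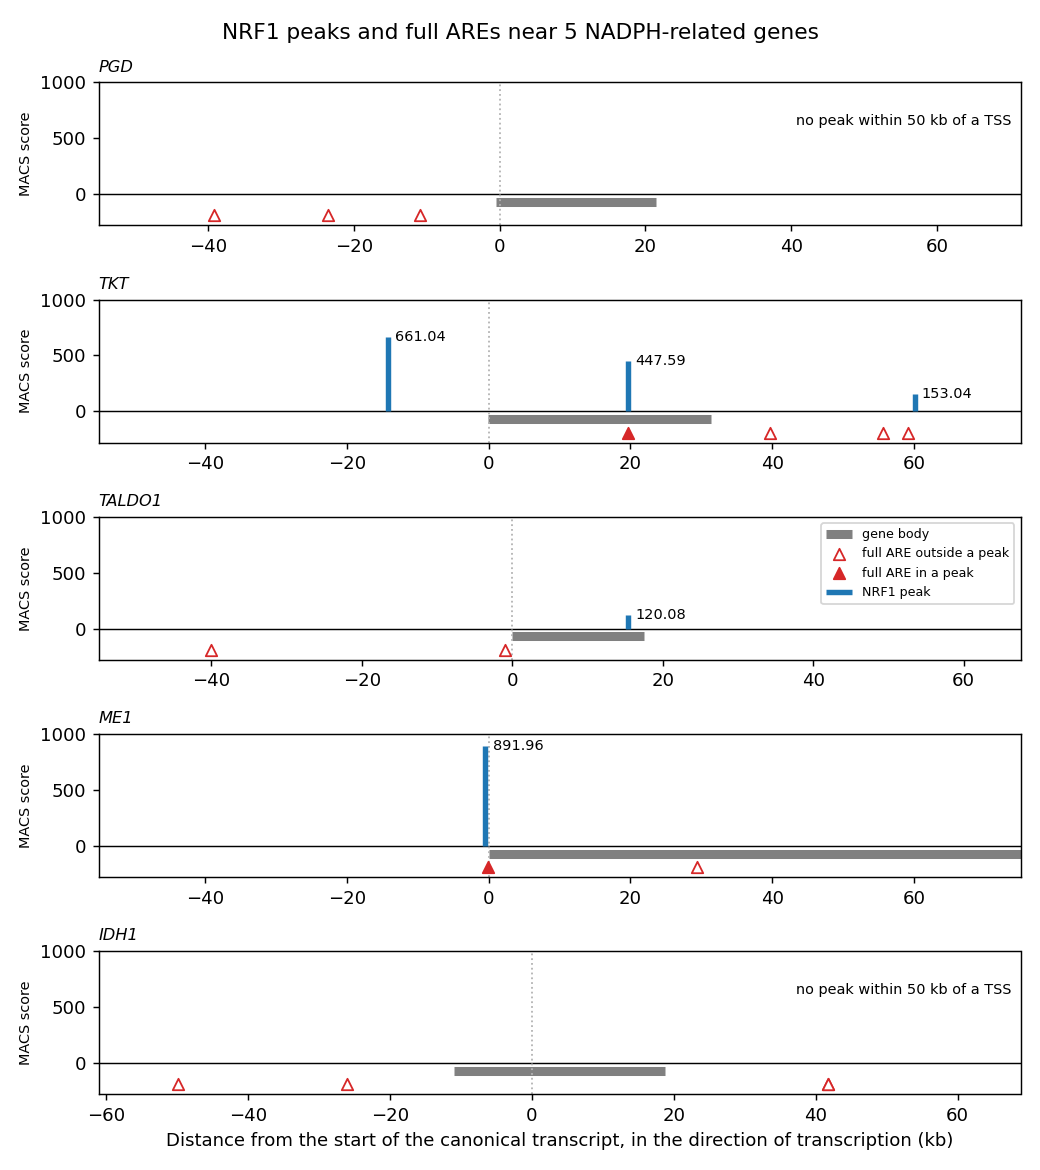
NRF1 peaks (blue, height is the MACS score on a linear axis) and full AREs (triangles, filled where inside a peak) within 50 kb of a TSS of each gene, against the distance in kb from the start of the canonical transcript in the direction of transcription. TKT has 3 peaks, TALDO1 and ME1 have 1 each, PGD and IDH1 have none, and 2 full AREs lie inside a peak. The ME1 gene body runs past the right edge, and the 2 overlapping full AREs at IDH1 appear as 1 triangle.

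ME1 makes cytosolic NADPH by oxidative decarboxylation of malate. The gene lies on the minus strand of chromosome 6 (chr6:83920121-84140770), with 1 annotated TSS at 84140770. Its peak, chr6:84140452-84141966, covered exon 1 and the sequence upstream, and its centre lay at −439 bp from the TSS. It ranked 16th of 5683 by score. Of the 1122 peaks whose nearest protein-coding TSS lay within 2 kb, 6 had a score at or above that of ME1, ME1 included. The peak was also among the widest. It spanned 1515 bp against a median of 501 bp, and 15 of 5678 peaks on chromosomes 1 to 22, X and Y were at least as wide, again with ME1 included.

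The ME1 peak held 1 full ARE, at −133 bp from the TSS, and 3 further short-form matches. The full ARE lay 306 bp from the peak centre, on the side of the gene. Across the 3479 peaks with a full ARE, the nearest one lay at a median of 30 bp from the centre, and in 0.172% of them it lay at least as far off as in ME1. The centre is the midpoint of the peak, so this share depends on peak width. In peaks no wider than the upper quartile of 596 bp, no match could lie 306 bp from the midpoint. The share therefore does not show that the ARE of ME1 is unusually placed for so wide a peak. The other matches were TGACGGTGC and TGACCCCGC, both in exon 1, and TGAGTAAGC at −928 bp. They differ from TGACTCAGC at 3, 2 and 2 positions. In the RefSeq promoter windows (300 bases each, around the gene start, GRCh38.p14), a full ARE was found in the window of ME1 and in none of those of the other 4 genes, and in 0.977% of all 35116 windows.

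TKT, which encodes the transketolase that passes 2-carbon units between sugar phosphates, had 3 peaks. At least 3 peaks within 50 kb were found at 2.39% of protein-coding genes. The gene lies on the minus strand of chromosome 3 (chr3:53258728-53290068), and its canonical transcript starts at 53290038. The peak with the highest score, 661.04 (rank 55), was intergenic, chr3:53303908-53304637, and centred 14.2 kb upstream of the canonical start. TKT was the nearest protein-coding gene by TSS. Of the 1855 peaks that lay 10 to 50 kb from the nearest protein-coding TSS, 9 had a score at or above that of the TKT upstream peak, which is among them. The second peak, chr3:53269957-53270801 with a score of 447.59 (rank 154), lay in intron 4, 19.7 kb downstream of the canonical start. It was centred 756 bp upstream of the start of a shorter TKT transcript with a retained intron. The third, chr3:53229725-53230194 with a score of 153.04 (rank 1402), lay past the 3′ end of TKT. Its centre was 33.5 kb from the nearest TKT TSS and 60.1 kb from the canonical start. A TSS of PRKCD, which encodes a protein kinase C, was nearer to this peak, at 7637 bp. The count of 3 thus rests on the use of any TSS, and TKT was the gene with the nearest TSS for 2 of the peaks.

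The 3 TKT peaks differed in their motifs. Only the intron 4 peak held a full ARE, 11 bp from the centre, and of all peaks with a full ARE 80.3% had it at least that far from the centre. The upstream peak, although higher in score, held no full ARE. Its match nearest to the centre, at 5 bp, was TGACTCGGC, which carries the substitution A7G against TGACTCAGC, with positions counted from 1 at the T. A core, TGACTCA, lay 122 bp from the centre. Of the 2199 peaks without a full ARE, 16 had a score at or above that of the TKT upstream peak, which is among them, and the median score of these 2199 peaks was 78.62. The peak on the 3′ side held neither a full ARE nor the core, and its match nearest to the centre, TGACTTCGC, differs by C6T and A7C. The surroundings of the upstream and the intronic site, with 50 bases on each side of the peak centre on the plus strand and the matches in capitals, show the difference in letters.
TKT upstream, chr3:53304222-53304322: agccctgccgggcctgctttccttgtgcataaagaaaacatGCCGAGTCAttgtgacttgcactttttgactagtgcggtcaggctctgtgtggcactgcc
TKT intron 4, chr3:53270329-53270429: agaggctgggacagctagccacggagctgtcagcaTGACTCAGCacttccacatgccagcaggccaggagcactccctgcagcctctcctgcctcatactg

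TALDO1 encodes transaldolase, which passes 3-carbon units between sugar phosphates. It lies on the plus strand of chromosome 11 (chr11:747415-765012), with its canonical start at 747464. Its peak, chr11:762621-763153, lay in intron 4, 15.4 kb downstream of that start and 1095 bp upstream of the start of a short internal transcript. The score of 120.08 (rank 1985) was the lowest of the 5. Among the 6591 protein-coding genes with a peak within 50 kb, the best score was at or above that of TALDO1 in 44.6%, at or above that of TKT in 1.99% and at or above that of ME1 in 0.546%. The TALDO1 peak held no full ARE. A core lay 15 bp from its centre, within the 9 bases TGACTCAGT, which differ from TGACTCAGC by C9T, and 1 short-form match lay 205 bp from the centre. The next peak outward, chr11:834838-835384 with a score of 184.41 and a full ARE, lay 70.7 kb from the nearest TALDO1 TSS and outside the window. The assigned peak farthest from a TSS was the TKT peak on the 3′ side.
TALDO1 intron 4, chr11:762837-762937: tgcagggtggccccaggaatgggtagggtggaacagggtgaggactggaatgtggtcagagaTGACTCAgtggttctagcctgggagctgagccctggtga

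**Figure D2:**
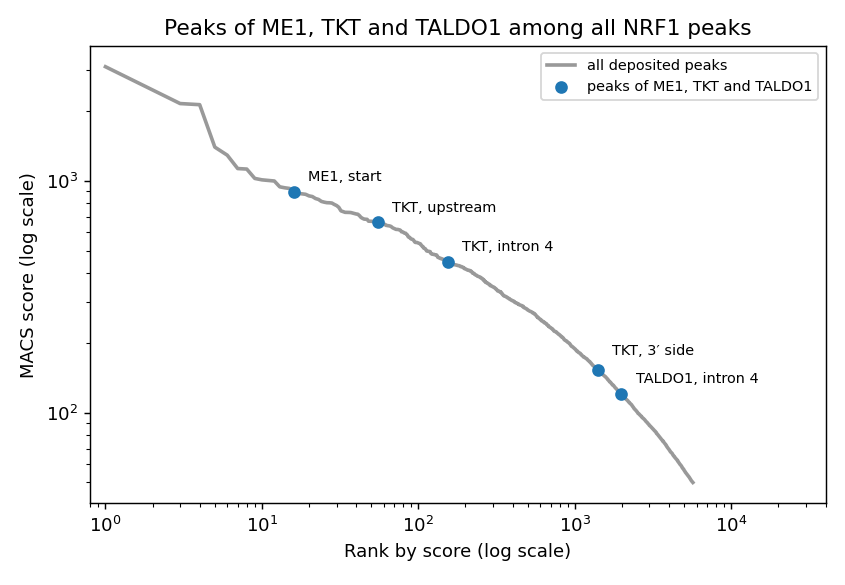
Score against rank for all 5683 deposited peaks (grey line, both axes logarithmic), with the 5 peaks of ME1, TKT and TALDO1 as points. ME1 ranks 16th, the TKT peaks 55th, 154th and 1402nd, and TALDO1 1985th.

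PGD and IDH1 had no peak in reach. PGD lies on the plus strand of chromosome 1 (chr1:10458649-10480568), and the peak nearest to any of its 10 TSSs was 187 kb away, with a score of 58.65 (rank 4816), nearer to a TSS of KIF1B. IDH1 lies on the minus strand of chromosome 2 (chr2:209100953-209130798), and the peak nearest to its 9 TSSs was 321 kb away, with a score of 85.77 (rank 3124), nearer to PTH2R. The median distance from a protein-coding gene to the nearest peak was 105 kb. For 34.8% of these genes the nearest peak was at least as far as for PGD, and for 20.9% at least as far as for IDH1. A binding event below the threshold of peak calling would not be listed, and the depth of the library is unknown.

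The full AREs around the 5 genes were then read from the genome and set against the peaks. Within 50 kb of their TSSs hg19 held 15 matches at 14 places, since 2 matches at IDH1 overlap. A peak covered 2 of the 15 (13.3%), against 3915 of 53132 matches in the whole genome (7.37%). Within 2 kb of a protein-coding TSS, a narrower window, 529 of 4699 matches were covered (11.3%), and within 2 kb of a TSS of the 5 genes 2 of 3. The share within 50 kb of all protein-coding TSSs was not computed. The 2 covered matches were those of ME1 and TKT intron 4. PGD had 3 places and IDH1 3, none of them in a peak. TALDO1 had a full ARE at −949 bp from its canonical start that no peak covered, while its peak lay over the core in intron 4. Some of the places outside the peaks are shown to compare their flanks with those of the covered sites, with distances from the canonical start.
TALDO1 at −949 bp, plus strand, chr11:746511-746519: acccagggacTGACTCAGCataagcggac
PGD at −10850 bp, plus strand, chr1:10448267-10448275: ttattcacatTGACTCAGCataatttctc
PGD at −23564 bp, plus strand, chr1:10435553-10435561: gcgattctccTGACTCAGCctccccagta
IDH1 at −26073 bp, plus strand, chr2:209145864-209145872: ccttcttgggTGAGTCAGCaagtcttaca
IDH1 at 41738 bp, plus strand, chr2:209078053-209078061: tcactatagcTGACTCAGCctagttcatc
TKT at 55647 bp, plus strand, chr3:53234387-53234395: ccctgagtcaTGAGTCAGCagtgggctcc

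The covered sites differed from the others in the bases next to the motif or at its position 4. With position 4 and the base on each side, the full ARE has 32 forms, and these were ordered by the share of their matches in hg19 that lay inside a peak. The form at TKT intron 4, ATGACTCAGCA, had the highest share, with 1401 of 3414 matches (41.0%). The form at ME1, ATGACTCAGCG, came next, with 111 of 316 (35.1%). The 13 matches outside the peaks had forms at places 5 to 30 of this order. The highest of these was ATGAGTCAGCA, downstream of TKT, with 19.4% of matches in a peak, followed by GTGAGTCAGCA at IDH1 with 11.0% and CTGACTCAGCA at TALDO1 with 6.39%. The 3 forms near PGD had shares of 0.336%, 0.411% and 0.713%. These shares were counted from the same peak list, and 2 covered sites are too few for a comparison beyond this description.

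**Figure D3:**
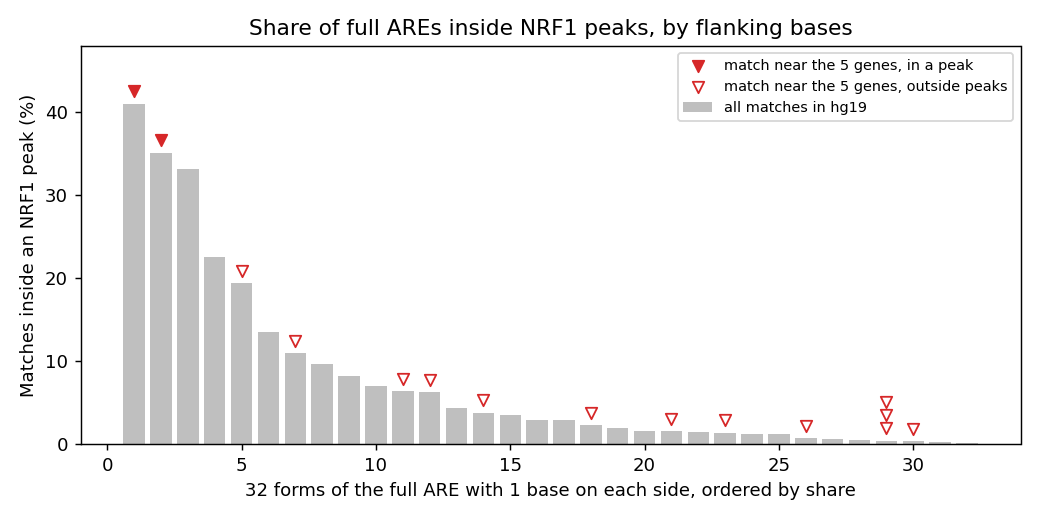
Share (%) of all matches to the full ARE in hg19 that lie inside an NRF1 peak, for the 32 forms with 1 base on each side, in descending order (grey bars from 0). Filled triangles mark the forms of the 2 matches near the 5 genes that lie in a peak, at places 1 and 2, and open triangles those of the 13 that do not, at places 5 to 30.

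The same count was made for the other motifs in the peaks. TGACTCGGC, the form nearest to the centre of the TKT upstream peak, lay inside a peak in 103 of its 3360 matches (3.07%). TGACTCAGT, at the centre of the TALDO1 peak, did so in 124 of 30263 (0.410%) and TGACTTCGC, at the centre of the TKT peak on the 3′ side, in 5 of 2509 (0.199%). All short-form matches together reached 0.394% and all cores 1.19%. Both of these counts include the full AREs, of which 7.37% lay in a peak, whereas the 3 motifs above are not full AREs. Shares without the full AREs were not computed, so the totals are no like-for-like background for the 3 motifs. A match inside a peak need not be the one that NRF1 binds.

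**Figure D4:**
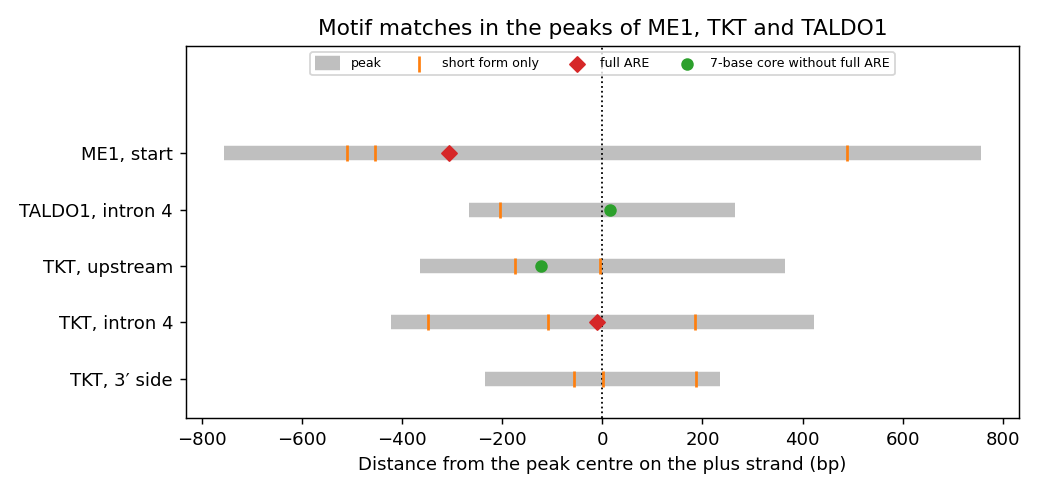
Position of each motif match in the 5 peaks, in bp from the peak centre along the plus strand; grey bars are the peaks, diamonds full AREs, circles cores outside a full ARE and ticks short-form matches. The full ARE lies 11 bp from the centre in the TKT intron 4 peak and 306 bp from it in the ME1 peak, and the remaining 3 peaks have none.

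Of the 5 peaks, 2 held a full ARE, 4 the core and 5 the short form, while over 5678 peaks these were 3479 (61.3%, with a 95% Wilson interval of 60.0 to 62.5% that covers counting error only), 4258 and 4959 (87.3%). The 5 peaks also shared a high GC content, which the rule did not use. It was 64.7% on the 3′ side of TKT, 61.7% in TKT intron 4, 60.9% at ME1, 57.6% at TALDO1 and 54.7% upstream of TKT. All 5 exceeded the upper quartile of all peaks, 52.7%. Peaks within 2 kb of a protein-coding TSS had a median of 54.6%, those at 2 to 10 kb 45.3% and those at 10 to 50 kb 44.6%. The TKT peak on the 3′ side falls in the class of 2 to 10 kb.

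A list of 26 further genes was also read, here called the other pathway genes. It held genes of the pentose phosphate pathway, of NADPH supply and of ribose phosphate use, and 4 NAD-linked relatives. Of these 26 genes, 9 (34.6%) had a peak within 50 kb of a TSS, close to the 32.7% of all protein-coding genes. Their best scores ran from 54.76 to 317.45. None reached the intron 4 or upstream peak of TKT or that of ME1. In the oxidative branch, H6PD, an NADPH-producing enzyme of the endoplasmic reticulum, had a peak with a score of 317.45, 34.8 kb from a TSS and nearer to SPSB1. PGLS, the lactonase that acts before PGD, had none within 50 kb. The peak nearest to PGLS, with a score of 291.37, lay outside the window at 61.0 kb from a TSS. In the non-oxidative branch, RPIA, which interconverts ribulose and ribose 5-phosphate, had a peak with a score of 155.69 in intron 6 and RPE had none.

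Among the 10 other NADPH suppliers, 4 had a peak. NADK, which makes NADP from NAD, had the highest score of these, 219.17, in intron 3 and at −417 bp from an internal TSS, without a full ARE. A second NADK peak, with a score of 90.69, held a full ARE and lay nearer to a TSS of GNB1. ALDH1L1, a cytosolic folate dehydrogenase, had a peak with a score of 170.67 and a full ARE, and a weaker one near the gene with a score of 86.73. MTHFD1, a folate enzyme of the cytosol, had a peak with a score of 94.70 and no full ARE. The mitochondrial counterparts of the malic enzyme and of IDH1, ME3 and IDH2, had no peak within 50 kb, nor did the NAD-linked relatives ME2, IDH3A, IDH3B and IDH3G. For ME3, ME2 and IDH2 the nearest peak lay not far outside the window, at 53.9, 59.4 and 62.3 kb. The remaining genes of the list without a peak were TKTL2, SHPK, MTHFD2, ALDH1L2, NNT, NADK2, PRPS1, PRPS2 and PGM2. MTHFD2L, TKTL1 and RBKS had best scores from 54.76 to 76.25. Of the 14 peaks of these 9 genes, 7 held a full ARE, against 61.3% of all peaks. A TSS of another protein-coding gene was nearer to 5 of the 14, a count for which no background share was computed.

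**Figure D5:**
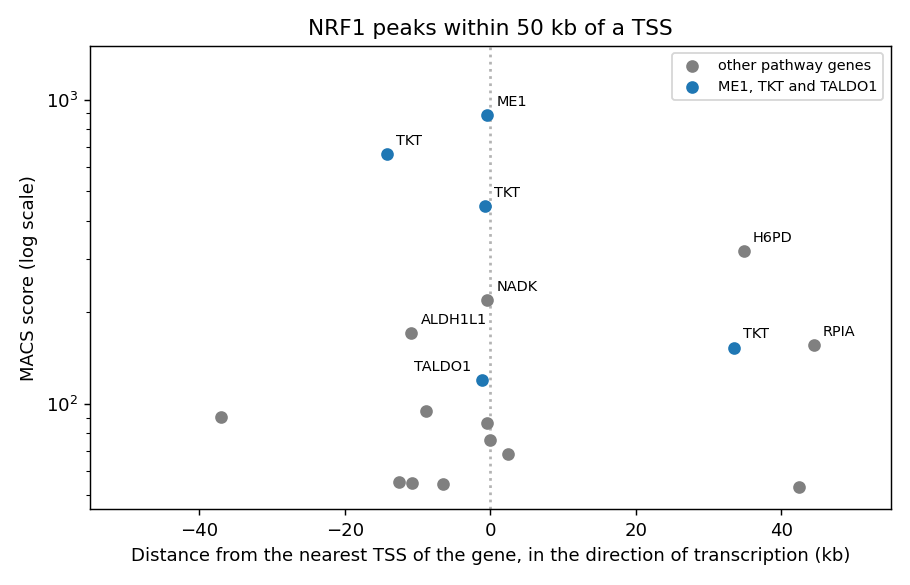
MACS score (logarithmic axis) against the distance in kb from the nearest TSS of the gene, for the 5 peaks of ME1, TKT and TALDO1 (blue) and for peaks of other pathway genes that are reported here (grey), with peaks of a score of at least 100 named. ME1 and TKT hold the 3 highest scores, and H6PD follows with 317.45.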

How the data were processed

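NRF1 ChIP-seq of 1 library was analysed. According to the submitters' processing notes and the study's methods, single-end reads were extracted in CASAVA 1.8.2, mapped to hg19 with Bowtie2 2.2.6, and peaks were called with MACS 1.4.2. The MACS settings and the control library are not given in the sources used here. In the deposited peak list the authors gave coordinates and the MACS score (10 × −log10 of the p-value), and the lowest score, 50.00, stands for a p-value of 1e-05. Read depth is unknown, so that scores were used only to rank and filter peaks.

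Sequence and TSSs came from GRCh37 (hg19) and GENCODE v44 lifted to it. The 5 peaks on other contigs were ranked but left out of the searches. Distances run from the peak centre, negative upstream. The 5 genes, the list of 26 pathway genes and the rule for named genes (all 5 genes, the pathway genes with a peak, the 6 highest scores with values, and nearer neighbours) were chosen with earlier results of these data known. Pathway genes without a peak are also all named, outside that rule and after their values were seen. A result for 1 gene of the list is not reported here. No test was run, since the list comes from 1 library. In the part of the study's site annotation read here, ME1 is listed with the same interval. Expression arrays were not analysed here. The motif search and distances were tested on simulated data. Alternatives were a score of at least 100, other windows, 1 coding TSS per gene, peak edges, the nearest gene only, merged peaks, the central 200 bp and other ARE forms. Python 3.11.15, numpy 2.4.6, pandas 2.3.3, scipy 1.17.1, pysam 0.24.0 and matplotlib 3.10.9 were used.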

Additional observations from a re-analysis of the deposited data

How the results depend on the processing

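The number of genes with a peak within 50 kb, 3 of 5, was the same under the 6 alternatives tried for it, and the number of their peaks stayed between 4 and 6. In all, 29 of 36 recomputed counts stayed within 1.5 times the reported value. For counts this small the limit is wide, as it lets 2 become 3, 3 become 2 and 9 become 6. The tally is therefore weak evidence of stability. The count of peaks with a full ARE depended most on the motif. It was 1 in the central 200 bp, since the ARE of ME1 lies farther out, 5 with the short form and 4 with the 7-base core, a form added after the sequences were seen. With the short form, 14 of 610 matches near the 5 genes (2.30%) lay inside a peak, in place of 2 of 15 full AREs (13.3%). In the whole genome 0.394% of short-form matches did. The short-form counts include the full AREs. By the start of the longest coding transcript, 1 gene had a peak within 2 kb. For the other pathway genes, the count of 9 became 5 with a score of at least 100 and 14 with a window of 100 kb. The shares of all protein-coding genes at these 2 settings were not computed, so these counts have no background. With 1 library, peaks near the threshold, such as those of TKTL1 and RBKS, have no second measurement, and a gene without a listed peak is not shown to be unbound.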

Other observations

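The bases beside the full ARE went with the share of matches inside a peak in the whole of hg19. Where the base before the motif was A, 18.2% of 12366 matches lay in a peak, and where it was T, 0.549% of 11102 did. With A after the motif the share was 15.6% of 18597 matches, and with C it was 1.45% of 17535. TGACTCAGC was covered in 9.23% of its matches and TGAGTCAGC in 4.26%. These are counts over 1 peak list, in which overlapping matches and repeated sequences were counted as they occur.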
